A study of Mus musculus with 6 samples.

Results

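The genes described here encode the subunits of the Polycomb repressive complexes and the enzymes that remove their marks, 34 genes defined by name, with no measured value in the rule. These genes were chosen with earlier results of these data known, so their counts beside the shares of all genes are descriptive only. They comprise 11 genes of Polycomb repressive complex 2 (PRC2), 19 of Polycomb repressive complex 1 (PRC1) and 4 opposing enzymes. Probes were matched by the gene name of the deposited array table, which gave 31 genes with 58 probes. The other 3, Kdm2b, Kdm6a and Kdm6b, stand in that table only under the older names Fbxl10, Utx and Jmjd3, and their 16 probes were added through RefSeq synonyms. Of the 34 genes, 31 had such a probe detected on at least 2 of the 6 arrays and were tested as members, 9 of PRC2, 18 of PRC1 and all 4 opposing enzymes, among 12631 genes tested in all. No probe carrying the current name of Jarid2, Phf1 or Phc3 was detected on 2 arrays, so these 3 genes were left out of the counts below, although a Jarid2 probe under an older name was detected and is described with PRC2.

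The RNA of 3 mouse pluripotent lines of B6 strain was hybridised to Illumina bead arrays, 2 samples per line. The O2ACH iPS line consists of induced pluripotent stem cells with a construct that joins Oct4 to cherry, a red fluorescent protein. CL25 is a clone with the same kind of construct that the labels mark as low, and both of these lines carry a minus/minus sign whose gene the labels do not name. The third line is embryonic stem (ES) cells, and all 3 lines grew in serum replacement medium with LIF, 3 µM CHIR99021 (an inhibitor of the kinase GSK3) and 1 µM PD0325901 (an inhibitor of the kinase MEK). Each kind of cell is 1 line, and CL25 is a single clone, so p-values below rest only on the spread of samples within lines. That spread was estimated over the 3 lines together and moderated by the spread of other genes. In bulk RNA, fewer cells with a transcript and less transcript per cell cannot be told apart.

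PRC2 places methyl groups on a lysine of histone H3 (H3K27), and PRC1 joins ubiquitin to a lysine of histone H2A (H2AK119). In canonical PRC1 a CBX protein reads the methylated H3K27 and a Polyhomeotic (PHC) protein links complexes to each other, whereas variant PRC1 holds RYBP or YAF2 in place of a CBX protein. In mouse ES cells both complexes occupy CpG-rich promoters of developmental regulators that are silent in the pluripotent state, and the cells can self-renew without PRC2.

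All 10 pluripotency markers examined, among them Nanog, Sox2, Klf4, Esrrb and Zfp42, were detected on both arrays of each line. Between 35.9% and 37.5% of all probes were detected on an array, and the lowest intensity that counted as detected lay between 97.2 and 107 over the 6 arrays. Log2 values of replicate arrays correlated across genes at 0.981 to 0.989, and arrays of different lines at 0.956 to 0.981. The ES arrays correlated with each other at 0.9807, and the first of them with the second O2ACH iPS array at 0.9814. Pou5f1, the gene for Oct4 and the gene of the construct, had deposited intensities of 1837 and 2150 in O2ACH iPS, 593 and 538 in CL25 and 4584 and 5054 in ES cells. The order of the 3 lines was the same on its second probe, with no overlap between lines.

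The members that passed the test in a comparison were Phc1 and Phc2, a pair of Polyhomeotic genes of PRC1, and Phf19, a Polycomb-like subunit that helps bring PRC2 to CpG islands. The promoter of each is shown because the genes differ here in CpG content, the feature by which Polycomb target promoters are usually described. Each sequence holds 250 bases before and 50 after the first listed RefSeq start (GRCm38.p6), on the strand of the gene, with every CpG in capitals. Phc1 lies at chr6:122340178-122340477 on the minus strand, Phc2 at chr4:128654452-128654751 on the plus strand and Phf19 at chr2:34913927-34914226 on the minus strand.
Phc1: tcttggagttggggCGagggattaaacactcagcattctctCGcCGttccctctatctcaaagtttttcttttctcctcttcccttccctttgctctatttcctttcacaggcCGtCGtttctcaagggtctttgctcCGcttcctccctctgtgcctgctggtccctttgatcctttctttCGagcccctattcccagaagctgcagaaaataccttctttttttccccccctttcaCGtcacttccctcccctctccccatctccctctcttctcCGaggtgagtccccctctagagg
Phc2: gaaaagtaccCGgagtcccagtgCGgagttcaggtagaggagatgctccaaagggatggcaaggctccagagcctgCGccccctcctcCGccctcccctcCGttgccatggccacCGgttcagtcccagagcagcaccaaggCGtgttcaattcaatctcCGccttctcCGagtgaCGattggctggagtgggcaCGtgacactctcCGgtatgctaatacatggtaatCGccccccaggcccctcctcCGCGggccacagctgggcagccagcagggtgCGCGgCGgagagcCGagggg
Phf19: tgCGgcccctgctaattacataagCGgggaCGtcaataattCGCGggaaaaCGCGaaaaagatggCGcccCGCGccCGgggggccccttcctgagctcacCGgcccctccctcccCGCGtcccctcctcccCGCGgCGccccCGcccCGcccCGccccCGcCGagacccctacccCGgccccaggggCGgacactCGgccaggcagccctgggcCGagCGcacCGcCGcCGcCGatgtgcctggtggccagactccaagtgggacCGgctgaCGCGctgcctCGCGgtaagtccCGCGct
The Phc1 window held 9 CpG, more than 53.8% of the 27025 mouse promoters of that length. The Phc2 window held 19, more than 71.6%, and that of Phf19 held 38, more than 95.2%. Phc2 has 3 listed starts, of which this is the first. A promoter was listed for 29 of the 34 genes. Their CpG counts ran from 4 to 54 with a median of 24, against a median of 7 over all promoters, and 28 of the 29 lay above 7. The GC box GGGCGG, searched on both strands, occurred in 22 of the 29 windows and in 35.9% of all promoters. The CCAAT box, CCAAT, occurred in 10, against 37.9% of all, and the TATA box, TATAAA, in 0, against 14.2% of all. The octamer ATTTGCAT, the sequence bound by Oct4 and its relatives, occurred in 0 of the 29 windows and in 1.75% of all promoters. The letters TTTGGCGC, a form of the site of E2F cell cycle factors, occurred in 1 window, that of Ezh2, and in 0.537% of all. These matches describe letters in 300 bases only.

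Between CL25 and the O2ACH iPS line, 1 of the 31 members passed the test, Phc1, which was lower in CL25. Over all genes 2.24% passed, 1.16% higher and 1.08% lower in CL25, so the share of members called was near the background. Of the 4 marker lists for other cell types, those of extraembryonic endoderm and trophectoderm had higher summed intensities in CL25 than in both other lines. The 11 extraembryonic endoderm markers summed to 5523 to 5619 in CL25, 2724 to 3915 in O2ACH iPS and 2873 to 3730 in ES cells, with Gata4, Sox17 and Foxa2 undetected in all 3. The 11 trophectoderm markers summed to 5611 to 6278 in CL25, 2613 to 3758 in O2ACH iPS and 2935 to 3523 in ES cells, with Hand1 and Elf5 undetected in all 3. Each of these sums rests largely on its brightest gene. Without Sparc the endoderm sums were 2044 to 2202 in CL25, 1161 to 1529 in O2ACH iPS and 1422 to 1771 in ES cells, and without Tfap2c the trophectoderm sums were 1676 to 1713, 1286 to 1498 and 1261 to 1311. Of the tested markers, Dab2 and Gata6 of endoderm passed the test against O2ACH iPS, and 0 of the 9 tested trophectoderm markers did. Of those 9, 4 had an unadjusted limma p under 0.05, as did 16.2% of all genes. Against ES cells, where 4.16% of all genes passed, Dab2 and Gata6 passed again. There 1 of the 9 trophectoderm markers passed, Tfap2a, higher in CL25 by 1.40 ± 0.20 on the log2 scale (limma adjusted p = 0.0144). The part of these markers in the Polycomb results was not tested. The 12 fibroblast and feeder markers summed to 2716 to 3274 in CL25, within the range of 2469 to 3285 spanned by the other lines, and Col1a1, Col3a1, Postn, Lum and Dcn were undetected in all 3 lines.

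PHC1 is one of 3 mouse Polyhomeotic proteins, whose SAM domains polymerise and hold PRC1 particles together. The deposited intensity of Phc1 was 1437 and 1032 on the 2 CL25 arrays. It was 2954 and 3266 in O2ACH iPS and 3766 and 3563 in ES cells. Both CL25 arrays lay below all 4 others, and the O2ACH iPS arrays lay just below the ES arrays. The log2 difference of CL25 from O2ACH iPS was -1.53 ± 0.21 (SE, 95% interval -2.02 to -1.03, n = 2 and 2, limma adjusted p = 0.0186), a 2.88-fold lower level. Against ES cells it was -1.68 ± 0.21 (-2.17 to -1.19, limma adjusted p = 0.00881), 3.20-fold lower. O2ACH iPS and ES cells differed by -0.15 ± 0.21 (-0.64 to 0.34, limma adjusted p = 0.816).

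A second Phc1 probe showed the same pattern. Its intensity was 609 and 437.5 in CL25, 1536 and 1455 in O2ACH iPS, and 1746 and 1796 in ES cells, which gave log2 differences of -1.79 and -1.94 for CL25. The third Phc1 probe was detected on 1 array. Of the 5 genes next to Phc1 on each side, 4 were tested and 0 of them passed in any comparison. Their CL25 differences from O2ACH iPS were -0.14 for M6pr, -0.01 for Mfap5, 0.03 for Apobec1 and -0.34 for Gdf3. The Phc1 difference from O2ACH iPS missed the threshold whenever 1 of the 4 arrays compared was left out, with log2 differences of -1.75 to -1.29 and limma adjusted p of 0.0513 to 0.168. It also missed it when undetected genes were tested too, at the same log2 difference of -1.53 (limma adjusted p = 0.0665). The difference from ES cells missed it only without the second CL25 array, at -1.45 (limma adjusted p = 0.0801).

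PHC2, the paralog of PHC1 with the same domain layout, went the other way. The Phc2 intensity was 478 and 473 in CL25, 300.3 and 360 in O2ACH iPS and 279 and 287 in ES cells. The 3 lines did not overlap, with CL25 highest and ES cells lowest. Phc2 was higher in CL25 than in ES cells by 0.95 ± 0.17 on the log2 scale (0.55 to 1.35, limma adjusted p = 0.0282), 1.93-fold. Against O2ACH iPS the difference was 0.54 ± 0.17 (0.14 to 0.93, limma adjusted p = 0.177), and O2ACH iPS differed from ES cells by 0.41 ± 0.17 (0.02 to 0.81, limma adjusted p = 0.334). The CL25 difference from ES cells stayed between 0.91 and 0.99 without any 1 of the 4 arrays compared and then missed the threshold, with limma adjusted p of 0.057 to 0.215. Phc3, the remaining Polyhomeotic gene, was not detected on any array. Levels of Phc1 and Phc2 cannot be compared with each other, since they come from different probes.

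**Figure D1:**
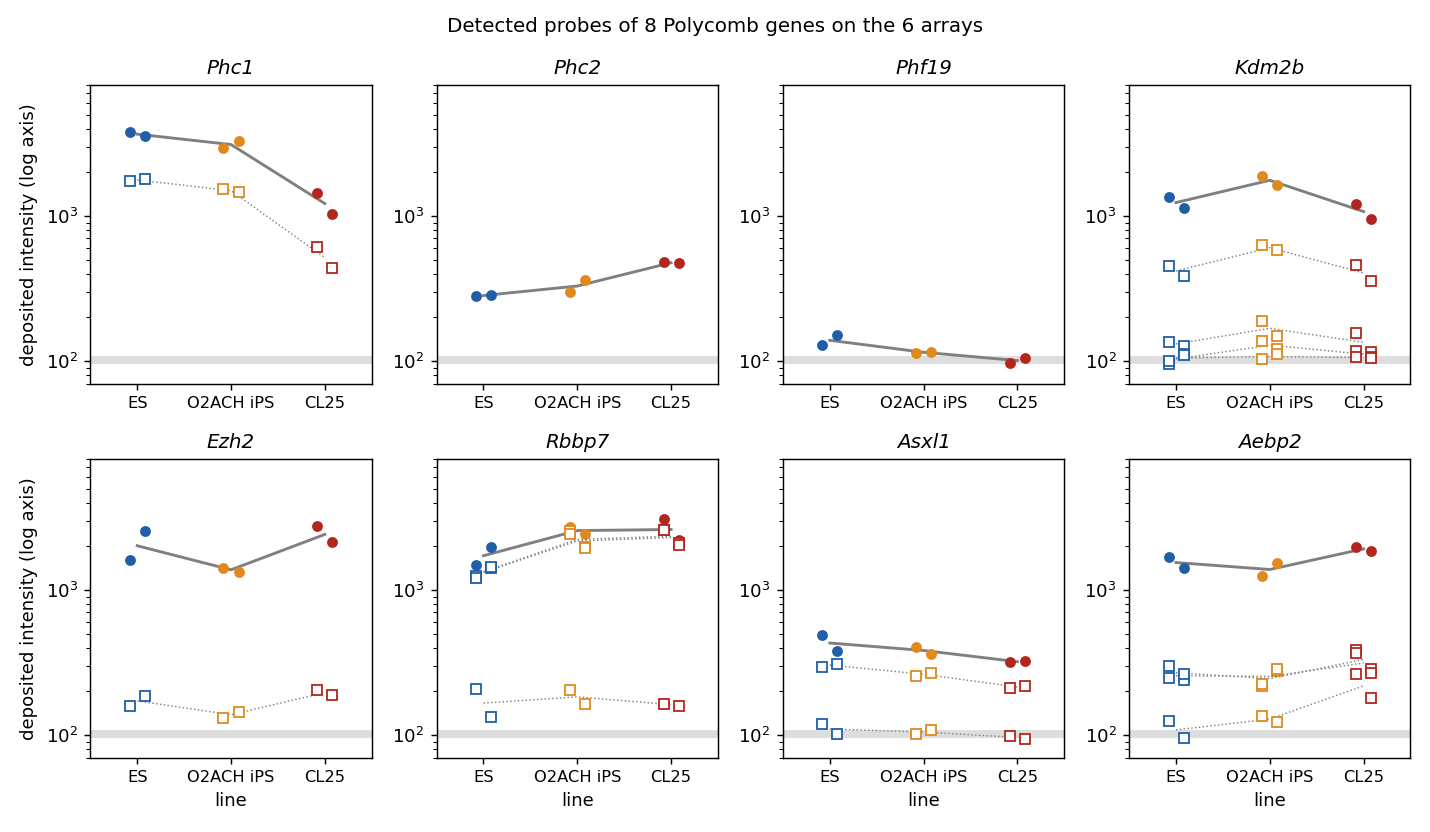
Deposited intensity (log axis) of the detected probes of 8 Polycomb genes on each of the 6 arrays, by line. Filled circles are the probe used in the tests, open squares the gene's other kept probes, solid and dotted grey lines join each probe's geometric means in the 3 cell lines, and the grey band marks the range of the lowest detected intensity over the 6 arrays. Both probes of Phc1 lie lowest in CL25, Phc2 lies highest there, and Phf19 lies close to the band.

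Between CL25 and ES cells, 3 of the 31 members passed the test, Phc2 higher and Phc1 and Phf19 lower in CL25. Of all genes 4.16% passed, 2.26% higher and 1.91% lower. Phf19 was dim throughout. Its intensity was 97.3 and 104 in CL25, 114 and 116 in O2ACH iPS and 129 and 150.2 in ES cells. The lines did not overlap, with CL25 lowest and ES cells highest, and 1 of the CL25 arrays did not reach detection. Phf19 was lower in CL25 than in ES cells by a log2 difference of -1.13 ± 0.22 (-1.65 to -0.61, limma adjusted p = 0.0374), 2.19-fold. The differences were -0.62 ± 0.22 between CL25 and O2ACH iPS (limma adjusted p = 0.224) and -0.51 ± 0.22 between O2ACH iPS and ES cells (limma adjusted p = 0.364). Being near background, the Phf19 value depends on the background step. Without background correction the CL25 difference from ES cells was -0.48 (limma adjusted p = 0.0806), and with a larger offset of 50 it was -0.65 (limma adjusted p = 0.0561). When undetected genes were tested too, the adjusted p was 0.0858 at the same -1.13. Without any 1 of the 4 arrays compared it lay between -1.35 and -0.90, with limma adjusted p of 0.0548 to 0.213. Phf19 has 2 more probes under older names, both undetected on all 6 arrays.

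Between the O2ACH iPS line and ES cells, 0 of the 31 members passed the limma test, where 0.808% of all genes did. At an unadjusted p under 0.05 there were 3, Kdm2b, Phc2 and Rbbp7, and 14.1% of all genes. The members' median absolute log2 difference was 0.23, against 0.21 over all genes, and no member differed by more than 0.70. The median standard error of a member's difference was 0.22, and differences as large as 0.70 did not pass with 2 arrays per line.

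The catalytic and scaffold subunits of PRC2 did not pass in any comparison. Ezh2, the main methyltransferase of dividing cells, had intensities of 1421 and 1336 in O2ACH iPS, 2743 and 2128 in CL25 and 1606 and 2537 in ES cells. Both CL25 arrays lay above both O2ACH iPS arrays, while the ES arrays lay far apart and overlapped CL25. The log2 difference of CL25 from O2ACH iPS was 0.69 ± 0.25 (0.10 to 1.29, limma adjusted p = 0.241), and a dimmer second Ezh2 probe gave 0.75. CL25 differed from ES cells by 0.20 ± 0.25 (limma adjusted p = 0.738), and O2ACH iPS from ES cells by -0.50 ± 0.25 (limma adjusted p = 0.437).

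Rbbp7, a histone chaperone subunit shared with other chromatin complexes, had intensities of 2710 and 2433 in O2ACH iPS, 3086 and 2209 in CL25 and 1490 and 1993 in ES cells. On the probe used, the O2ACH iPS and CL25 arrays lay above the ES arrays and overlapped each other. The log2 difference of O2ACH iPS from ES cells was 0.70 ± 0.24 (0.14 to 1.25, limma adjusted p = 0.256), that of CL25 from ES cells 0.56 ± 0.24 (limma adjusted p = 0.249), and that of CL25 from O2ACH iPS -0.13 ± 0.24. The other 3 kept Rbbp7 probes gave 0.89, 0.87 and 0.39 for O2ACH iPS against ES cells. For CL25 against ES cells they gave 0.81, 0.79 and -0.03, so the probes did not all agree there.

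On the probes used, the other core genes stayed within ±0.29 on the log2 scale in all 3 comparisons. They are Ezh1, the second methyltransferase, Eed, which binds the methylated tail, Suz12, the scaffold, and Rbbp4, the paralog of Rbbp7. For Suz12 the differences were -0.10 ± 0.18 for CL25 against O2ACH iPS, 0.13 for CL25 against ES cells and 0.22 for O2ACH iPS against ES cells, and its dimmer probe gave -0.17, -0.24 and -0.06. The 2 other Rbbp4 probes gave -0.37 and -0.07 for CL25 against O2ACH iPS, where the probe used gave 0.12. Eed had the widest standard error of all members, 0.32, and its ES arrays read 909 and 562.

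Among the accessory subunits, Mtf2, the Polycomb-like paralog of Phf19, differed by 0.02 ± 0.18 between CL25 and O2ACH iPS and by 0.18 between CL25 and ES cells. Its 2 other kept probes, both detected on all 6 arrays, gave 0.33 and 0.33 in the former comparison and 0.11 and 0.14 in the latter. Aebp2, which with Jarid2 marks the other form of PRC2, differed by 0.34 ± 0.20 and 0.29 on its brightest probe. All 4 kept Aebp2 probes gave higher means in CL25 than in both other lines. The dimmest of them read 264 and 181 in CL25, 135 and 123 in O2ACH iPS and 124 and 94.7 in ES cells. It differed from ES cells by 1.83 ± 0.39 (limma adjusted p = 0.0484 in the fit of every probe), against 0.29 to 0.41 on the other 3, so the probes of Aebp2 disagree on size. A Jarid2 probe under the older name Jmj was detected on 3 arrays, both of O2ACH iPS and 1 of CL25. It gave -0.14 for CL25 against O2ACH iPS and 0.10 for CL25 against ES cells. Neither ES array reached detection, so the size of the latter difference was not measurable. Neither of the 2 Phf1 probes was detected on any array.

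The PRC1 ligases, which attach ubiquitin to H2AK119, are encoded by Ring1 and Rnf2. Ring1 differed between CL25 and O2ACH iPS by 0.08 ± 0.25, with 0.08 on its second probe. The single kept Rnf2 probe was detected on 2 of the 6 arrays and on neither O2ACH iPS array, so the size of a difference in Rnf2 was not measurable. The 6 PCGF subunits, each of which defines one kind of PRC1, gave 0 calls in all 3 comparisons. Pcgf2 (Mel18), found in canonical PRC1, had the lowest value of them against O2ACH iPS, a log2 difference of -0.49 ± 0.20 (limma adjusted p = 0.293) with no overlap of arrays. Its paralog Bmi1 differed by 0.01 ± 0.29 in the same comparison. Pcgf5 differed from ES cells by -0.51 ± 0.29 in CL25 and by -0.39 in O2ACH iPS, with arrays that overlapped in both. Pcgf1, Pcgf3 and Pcgf6, subunits of variant complexes, lay between -0.30 and 0.06 in all 3 comparisons.

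Of the CBX readers, Cbx7, which is known as the main CBX protein of ES cells, differed by -0.03 ± 0.22 between CL25 and O2ACH iPS and by 0.34 ± 0.22 between CL25 and ES cells. Cbx6 and Cbx2 gave -0.43 ± 0.19 and -0.35 ± 0.18 between CL25 and O2ACH iPS without overlap of arrays, and limma adjusted p of 0.313 and 0.385. Cbx8 differed from ES cells by 0.50 ± 0.24 in CL25 and 0.48 ± 0.24 in O2ACH iPS. Its first ES array, at 86.2, did not reach detection, and its second read 112. Leaving out 1 array at a time gave 0.18 to 0.82 for CL25 and 0.15 to 0.80 for O2ACH iPS. Scmh1, a partner of the Polyhomeotic proteins, differed by at most 0.16 in any comparison on the probe used. A second Scmh1 probe was detected on the 2 CL25 arrays only, so the size of its differences was not measurable.

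Kdm2b, which brings the PCGF1 form of variant PRC1 to unmethylated CpG islands, had the smallest adjusted p of the members that passed in none of the 3 comparisons. Its intensity was 1887 and 1645 in O2ACH iPS, 1213 and 948 in CL25 and 1356 and 1128 in ES cells. The O2ACH iPS arrays lay above the 4 others, and CL25 and ES arrays overlapped. The log2 difference of CL25 from O2ACH iPS was -0.89 ± 0.23 (-1.45 to -0.34, limma adjusted p = 0.113), and that of O2ACH iPS from ES cells was 0.67 ± 0.23 (0.12 to 1.22, limma adjusted p = 0.266). The 4 other kept probes of Kdm2b gave -0.80, -0.74, -0.63 and -0.21 for CL25 against O2ACH iPS. Rybp and Yaf2, the subunits that replace a CBX protein, differed from O2ACH iPS in CL25 by -0.15 ± 0.19 and 0.11 ± 0.20, and Rybp from ES cells by -0.38 ± 0.19 (limma adjusted p = 0.326).

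None of the 4 opposing enzymes passed the limma test in any comparison, and 0 had an unadjusted p under 0.05. On the probes used, their mean levels were all lowest in CL25, a place that CL25 held for 37.4% of all genes. Other probes of Kdm6a and Kdm6b did not all follow this order. Asxl1, the cofactor of the H2AK119 deubiquitinase Bap1, had intensities of 318 and 323 in CL25, 403 and 363 in O2ACH iPS and 490 and 379 in ES cells. Both CL25 arrays were the lowest of the 6. The log2 differences of CL25 were -0.46 ± 0.24 from O2ACH iPS (limma adjusted p = 0.427) and -0.52 ± 0.24 from ES cells (limma adjusted p = 0.304). A second Asxl1 probe, detected on all 6 arrays, gave -0.56 and -0.70. The third Asxl1 probe was not detected on either CL25 array, so the size of its differences was not measurable. Bap1 itself differed by -0.26 ± 0.18 and -0.31 ± 0.18, also without overlap of arrays. Of the 4 enzymes, 3 had both CL25 arrays below both O2ACH iPS arrays, as did 25.4% of all genes, and 3 had them below both ES arrays, as did 27% of all genes.

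Kdm6a and Kdm6b are the enzymes that remove methyl groups from H3K27. Kdm6a had intensities of 645 and 666 in CL25, 805 and 829 in O2ACH iPS and 847 and 566 in ES cells. CL25 lay below O2ACH iPS and inside the wide range of the ES arrays, with log2 differences of -0.46 ± 0.27 (limma adjusted p = 0.463) and -0.08 ± 0.27. Its second probe gave -0.35 and 0.07. Kdm6b had intensities of 489 and 580 in CL25, 461 and 748 in O2ACH iPS and 698 and 718 in ES cells. CL25 overlapped O2ACH iPS and lay below ES cells, with a difference from the latter of -0.46 ± 0.24 (limma adjusted p = 0.36). Its 2 dimmer probes gave 0.05 and -0.01 in that comparison, and 0.21 and -0.26 for CL25 against O2ACH iPS.

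**Figure D2:**
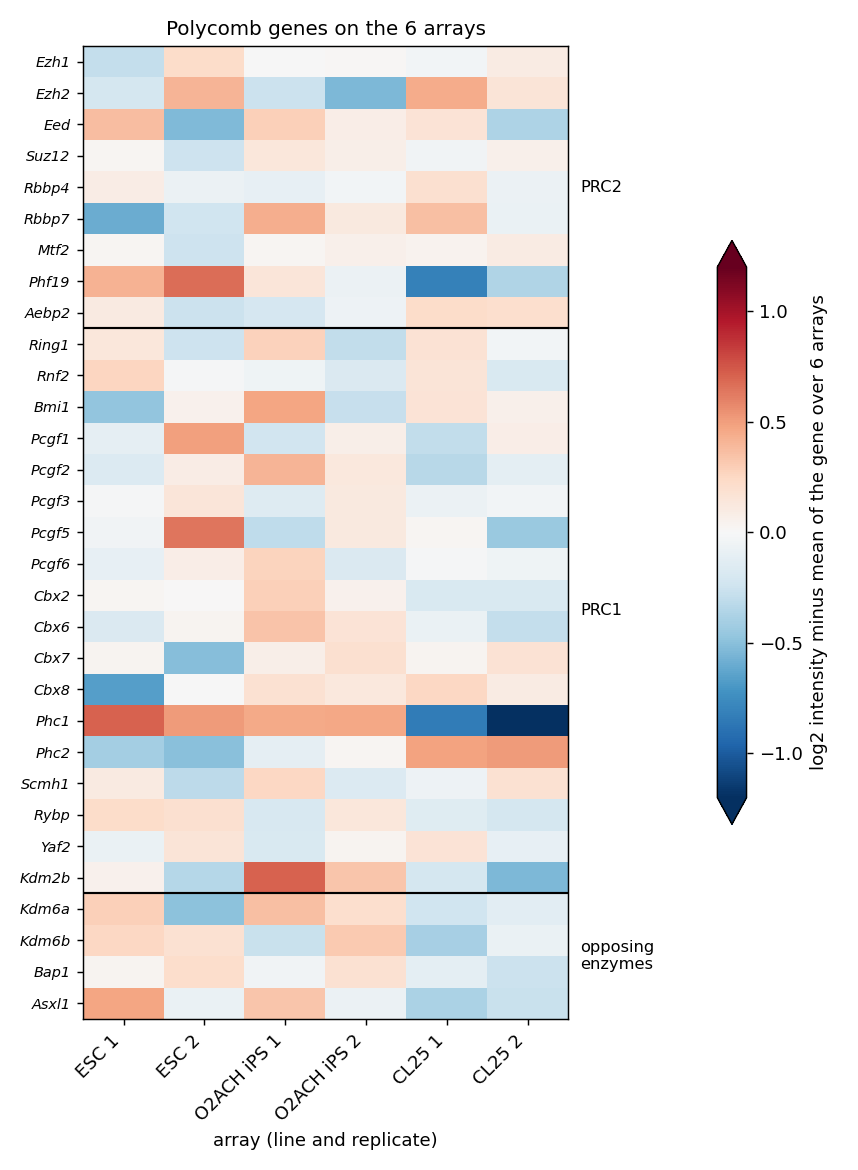
Log2 intensity of the 31 tested Polycomb genes on each of the 6 arrays after background correction and quantile normalisation, as the difference from each gene's mean over the arrays, ordered by complex. Phc1 stands out as low in both CL25 arrays, and the 4 opposing enzymes at the end have their lowest line mean in CL25 on the probes used.

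The 31 genes did not move as a block. The median log2 difference was -0.08 between CL25 and O2ACH iPS, against -0.02 over all genes, and -0.02 between CL25 and ES cells, where it was also -0.02 over all genes. The median absolute differences were 0.13 and 0.20, against 0.22 and 0.24 over all genes. Differences above 0.5 in size occurred in 16.1% of members and 18.9% of all genes against O2ACH iPS, and in 22.6% and 22.2% against ES cells. The arrays of the 2 lines did not overlap for 13 of the 31 members between CL25 and O2ACH iPS, where 48.8% of all genes did not, and for 14 between CL25 and ES cells, where 50.5% did not. For O2ACH iPS and ES cells the count was 15, and 42.2% of all genes did not overlap. On the probes used, CL25 had the lowest mean of the 3 lines for 16 of the 31 members, 51.6%, and for 37.4% of all genes. By complex these were 2 of 9 for PRC2, 10 of 18 for PRC1 and 4 of 4 for the opposing enzymes. Some were lowest by little, as Eed and Pcgf6 in CL25 each differed from ES cells by -0.02. CL25 had the highest mean for 5 of the 9 PRC2 genes and for 32.6% of all genes. The comparisons share arrays, so their counts are not separate evidence of one another. Of the 13 members with several kept probes, all probes agreed in sign for 11 between CL25 and O2ACH iPS and for 6 in each comparison with ES cells.

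**Figure D3:**
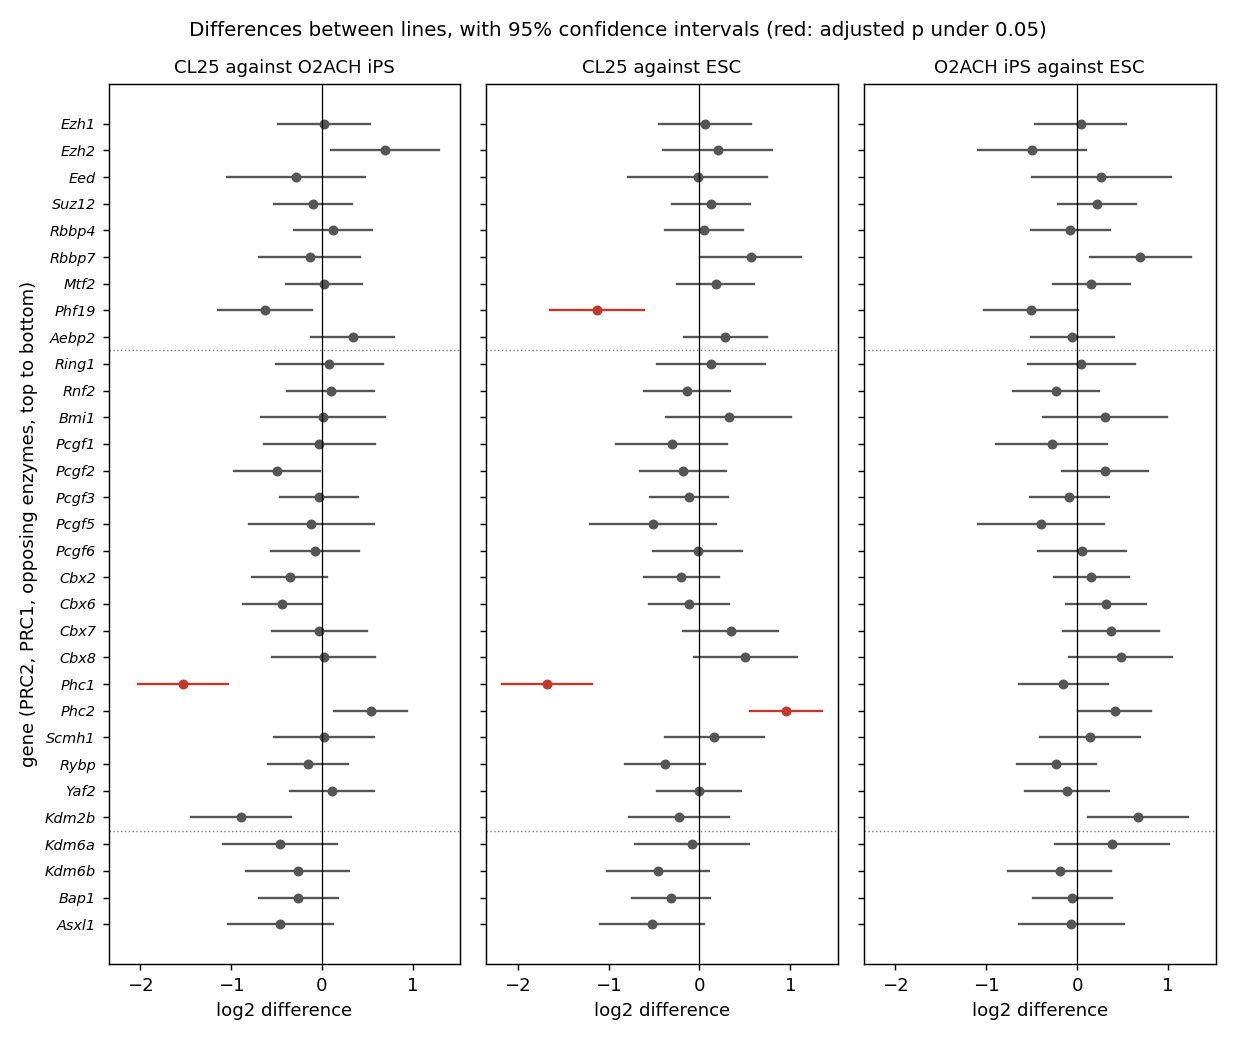
Log2 differences between lines for the 31 tested Polycomb genes with 95% intervals from limma, 1 panel per comparison, with members that passed the adjusted threshold marked. The calls are Phc1 in the first panel and Phc1, Phc2 and Phf19 in the second, and most other intervals include 0.

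Genes outside the named subunits were taken from lists of the same pathway. Of 34 other Polycomb partners 24 were tested, of 19 trithorax genes 15, and of 12 genes of H3K9 methylation and heterochromatin 10. The limma test called 0 of them in all 3 comparisons, where 2.24%, 4.16% and 0.808% of all genes were called. At an unadjusted p under 0.05 the counts were 0, 0 and 0 for CL25 against O2ACH iPS, 2, 2 and 1 for CL25 against ES cells, and 2, 1 and 1 for O2ACH iPS against ES cells. The shares of all genes at that p were 16.2%, 19.5% and 14.1% in the same order of comparisons.

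Developmental regulators that carry Polycomb marks in ES cells were mostly undetected. Of 55 such genes, 14 were detected on both arrays in ES cells, 13 in O2ACH iPS and 14 in CL25, while 37.7%, 36.8% and 37.7% of 28907 genes with a probe were. The filter can keep a gene through 1 line alone, as it did Olig1 through ES cells, and such a gene had to differ. The list was also chosen with earlier results of these data known, so its counts beside the shares of all genes are descriptive only. Against 2.24% of all genes, 1 of the 19 tested was called between CL25 and O2ACH iPS, Gata6, an endoderm transcription factor, higher in CL25 by 2.00 ± 0.33 on the log2 scale (limma adjusted p = 0.0324). Between CL25 and ES cells 3 were called, against 4.16% of all genes, and this count includes Olig1. Gata6 was higher in CL25 by 2.28 ± 0.33 (limma adjusted p = 0.0145), and so was Gsc, a homeobox gene of the gastrula organiser, by 2.82 ± 0.41 (limma adjusted p = 0.0143). Olig1, a neural transcription factor, was at least 6.52-fold lower in CL25, where it was not detected (limma adjusted p = 0.00061). Between O2ACH iPS and ES cells 2 were called, again with Olig1 among them, against 0.808% of all genes. There Olig1 was at least 6.35-fold lower (limma adjusted p = 0.000834) and Gata3, a trophectoderm factor, at least 2.87-fold higher in O2ACH iPS (limma adjusted p = 0.0402). At an unadjusted limma p under 0.05 the list had 7, 8 and 3 of its 19 tested genes in the 3 comparisons. The shares of all genes at that p were 16.2%, 19.5% and 14.1%. Gata6, Gata3 and Olig1 also belong to the marker lists of other cell types described above, and the 8 neural markers summed to 1228 to 1460 in ES cells, 840 to 849.6 in CL25 and 748 to 781 in O2ACH iPS.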

How the data were processed

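Total RNA of 6 samples, 2 per line, was extracted with RNeasy columns and labelled with biotin by the TotalPrep-96 kit, per the labels. Per the file headers, the deposited table gives 45281 probes with an average intensity, not normalised, and a detection p-value for each array. Array medians lay between 87.3 and 96.0. A second table of the authors holds deposited log2 values of 16306 rows whose identifiers match 0 probes, so it was not used. The array model and the scanner software: not given in the sources used here. No per-sample column stayed unmatched.

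The nec function of limma 3.58.1 (R 4.3.3) corrected the background from the detection p-values (offset 16), and log2 values were quantile normalised. A probe was kept where its detection p was below 0.05 on 2 or more of the 6 arrays (18175 probes), and the kept probe with the highest mean stood for a gene. An offset shrinks differences of dim genes. Names came from the table, updated through RefSeq GRCm38.p6 (27760 probes by symbol, 7994 by synonym, 9527 unchanged), and sequences from RefSeq, GRCm38.p6. The first start listed per gene was used.

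A model with 3 line means (lmFit, eBayes, 3 residual and 4.27 prior degrees of freedom) was tested two-sided, with Benjamini-Hochberg adjustment over all genes and calls under 0.05. A fold against a line with no detection is a bound, set by the lowest detected signal. The procedure was tested on simulated data. The rule for members uses names alone, but the set of members and the lists were chosen with earlier results of these data known. Marker sums without their brightest gene were added after seeing the data. Every array's value is given for members called and for the 3 with the smallest p of PRC2, PRC1 and the opposing enzymes. For other lists up to 4 called genes per comparison are named. Alternatives changed the background step, normalisation, filter, probe choice, samples and block.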

Additional observations from a re-analysis of the deposited data

How the results depend on the processing

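Over all alternatives, 1470 values of members were recomputed. Of these, 1452 stayed on the same side of the threshold, with the same direction where they were called, 17 lost the call, 1 gained it and 0 reversed as calls. Most of the values belong to differences not called at the outset, which had no call to lose. Among those called, Phc1 kept its call in 11 of 16 settings against O2ACH iPS and in 15 of 16 against ES cells. Against ES cells, Phc2 kept its call in 12 of 16 settings and Phf19 in 8 of 15. Among the 1452, 75 changed sign with neither value past the threshold. Without the detection filter, which tests more genes, 0 members (Phc1 lost its call at the same difference) and 58 genes passed between CL25 and O2ACH iPS, 191 genes between CL25 and ES cells and 24 between O2ACH iPS and ES cells. With detection on all 6 arrays the genes numbered 135, 336 and 31, and with only the 4 arrays compared 46 passed between O2ACH iPS and ES cells. Leaving out 1 array at a time gave 0 to 1 members and 0 to 394 genes between CL25 and O2ACH iPS, 0 to 3 members and 55 to 553 genes between CL25 and ES cells, and 0 members and 14 to 199 genes between O2ACH iPS and ES cells. The 0 genes came without the second CL25 array, where 1106 had an unadjusted limma p under 0.05. The samples share only a replicate number, and deviations of same-numbered samples correlated at 0.183 to 0.323. With the number as a block, 2 members (Phc1 and Kdm2b, the latter with a limma adjusted p of 0.0297) and 649 genes passed between CL25 and O2ACH iPS, 911 genes between CL25 and ES cells and 272 between O2ACH iPS and ES cells. Beyond the number of genes or samples, the cause was not tested. The authors' log2 table, whose identifiers match no probe, and the slide, which the files do not name, were not run. Signal over background limits Phf19, Rnf2, Ezh1 and Cbx8, which lie close to the detection limit.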
